A study of Mus musculus with 6 samples.

Results

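The osteoblast lineage genes described here are 8 genes that mark successive steps on the path to bone-forming cells: Runx2, Sp7, Alpl, Spp1, Ibsp, Bglap, Phex and Omd. They were taken by symbol from the GRCm38 annotation, and all 8 are among the 46603 genes counted in each library. The libraries are bulk RNA sequencing of 3 samples of beta-actin knockout (KO) mouse embryonic fibroblasts and 3 samples of wild-type (WT) mouse embryonic fibroblasts. Both genotypes carry the strain label BALB/c and come from embryos of 10.5 days, and both had spent 6 days in adipocyte differentiation medium, which holds insulin, dexamethasone, 3-isobutyl-1-methylxanthine (IBMX) and ascorbic acid. The labels do not say how many embryos or clones stand behind each genotype, nor that the 3 samples were separate cultures, so the p-values measure the spread between these samples, which may be technical. All 6 libraries come after induction, so a difference that was already present before it cannot be told apart from one that arose in the medium.

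In KO cells, Spp1, which encodes the secreted matrix protein osteopontin, stood 9.69-fold above WT cells, and Runx2, the transcription factor that commits cells to the osteoblast lineage, stood 1.70-fold above. Alpl, Phex and Omd were detected in every library and did not pass the test. Sp7, Ibsp and Bglap, genes of committed and mature osteoblasts, had at most 26 counts in any library.

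Osteoblasts arise from mesenchymal progenitors that can also form fat, cartilage or muscle. Runx2 acts first and Sp7 (osterix) after it. The cells then make tissue-nonspecific alkaline phosphatase (Alpl), which frees phosphate for mineral, and later a set of secreted matrix proteins, among them osteopontin (Spp1), bone sialoprotein (Ibsp), osteocalcin (Bglap) and osteomodulin (Omd). Phex, a membrane endopeptidase of osteoblasts and osteocytes, restrains the phosphate-lowering hormone FGF23. Dexamethasone and ascorbic acid, both in this medium, are also components of the media in which osteoblasts are grown. Osteopontin is not restricted to bone and is made by macrophages, epithelia and smooth muscle cells as well.

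The libraries held 30240750 to 38619711 counts in KO cells and 26955708 to 30235906 in WT cells. Levels are given as counts per 1000000 (CPM) in libraries scaled by the trimmed mean of M values (TMM), with SD and n = 3 per genotype. The limit set by a count of 0, taken as 3 counts, corresponds to 0.0815 to 0.113 CPM in KO libraries and 0.0942 to 0.101 CPM in WT libraries, counting error only. Actb, the deleted gene, had 276, 1988 and 1850 counts in the KO libraries and 60501, 60582 and 53894 in the WT libraries. The fibroblast label holds for Col1a1, Vim and Fn1, which were abundant in all 6 libraries, but in WT cells Thy1 had 1 count in all and Col1a2 and Lum had 6 to 13 and 2 to 20 counts a library.

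Runx2 is known to act through the core motif ACCACA in the promoters of osteoblast genes. It was searched in the 250 bases before the first transcription start that RefSeq lists for each member (build GRCm38.p6). Sequence is printed for Runx2 and Spp1, the 2 members that were called, and for Bglap and Ibsp, 2 known Runx2 targets with few or no counts. The whole window is given for Spp1 and Bglap. For Ibsp and Runx2 the window reaches 116 and 170 bases into the gene as GENCODE annotates it, so the 134 bases outside the gene are given for Ibsp and 30 bases around the motif for Runx2. Sequences run 5′ to 3′ on the gene's strand, and capitals mark ACCACA or its reverse complement TGTGGT.
Runx2, chr17:44814690-44814719, minus strand: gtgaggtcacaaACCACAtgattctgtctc
Spp1, chr5:104434861-104435110, plus strand: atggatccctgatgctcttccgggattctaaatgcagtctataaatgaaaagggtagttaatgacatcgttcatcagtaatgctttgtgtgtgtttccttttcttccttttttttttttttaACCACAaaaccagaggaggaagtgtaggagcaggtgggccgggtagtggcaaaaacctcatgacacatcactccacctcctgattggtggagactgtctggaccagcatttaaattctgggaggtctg
Bglap, chr3:88384467-88384716, minus strand: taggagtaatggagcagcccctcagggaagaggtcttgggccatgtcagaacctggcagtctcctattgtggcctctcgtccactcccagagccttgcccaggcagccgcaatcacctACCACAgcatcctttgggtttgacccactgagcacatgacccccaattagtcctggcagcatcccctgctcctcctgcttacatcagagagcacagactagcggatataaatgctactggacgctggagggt
Ibsp, chr5:104299037-104299170, plus strand: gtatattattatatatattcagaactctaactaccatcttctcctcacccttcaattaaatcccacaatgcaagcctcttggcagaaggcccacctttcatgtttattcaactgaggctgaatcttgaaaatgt
The motif occurred once each before Runx2 (80 to 75 bases before the start), Spp1 (128 to 123 bases) and Bglap (132 to 127 bases), always on the gene's own strand, and not in the window of Ibsp. Of the 7 members in the promoter table (all but Sp7), these 3 held it at their first listed start, and Alpl, Phex and Omd did not, nor did the second start of Spp1 or of Alpl. Of all 32851 promoters of the same length, 14.0% held it on either strand. The motif stood before both members that rose and before Bglap, which had few counts. The CArG box, bound by the actin-regulated factor SRF, and the cAMP response element TGACGTCA, searched on both strands, were in none of these windows and in 1.47% and 1.55% of all promoters.

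Runx2 (chromosome 17, 44495987 to 44814797, GRCm38, minus strand) had 1464, 1214 and 1455 counts in KO and 797, 762 and 828 in WT. That is 54.9, 36.0 and 39.5 CPM in KO cells and 25.0, 23.9 and 27.9 CPM in WT cells, and the genotypes did not overlap. Its log2 fold change was 0.76 (SE 0.20, edgeR adjusted p = 0.0179), with all 3 KO libraries above all 3 WT libraries. Leaving out WT replicate 1 or WT replicate 2 ended the call (edgeR adjusted p = 0.0712 and 0.0813). The antisense gene Runx2os1 shares 5.87% of the exon bases of Runx2, and reads of both genes cannot be told apart there without strand. It had 7, 8 and 15 counts in KO and 6, 9 and 3 in WT.

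Sp7 (chromosome 15, 102356606 to 102367182), the zinc finger factor that acts after Runx2, had 3, 6 and 6 counts in KO and 4, 3 and 4 in WT. Both genotypes were thus near the detection limit and overlapped, and the gene had too few counts for the test. Taken over each genotype, 15 counts against 11 give a KO to WT ratio of 1.31 (exact Poisson 95% interval 0.562 to 3.15, counting error only). The interval holds no change of Sp7 as well as moderate changes in either direction. It ends below the fold change of Spp1, but it leaves out the spread between libraries.

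Of the 8 genes, 5 had enough counts to be tested: 2 were called higher, 3 were not called and 0 were called lower. Among these 5 the count of lower genes was also 0 at an unadjusted p under 0.05, and 0 with DESeq2 and with limma-voom. All 5 log2 fold changes were above 0 in these fits, so that count was 0 at any threshold. The low-count filter had removed Bglap before these fits. With no filter the log2 fold change of Bglap was -1.58 (edgeR unadjusted p = 0.0135, adjusted p = 0.0709). Over all 15009 tested genes, 28.3% were called, 13.8% as higher and 14.5% as lower. The median log2 fold change of the 5 was 0.76, against 0.0099 over all tested genes. In TMM-scaled CPM, KO and WT values did not overlap for Runx2, Spp1 and Omd, a pattern that 49.6% of all tested genes share. For Omd the genotypes overlapped relative to library totals alone.

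**Figure D1:**
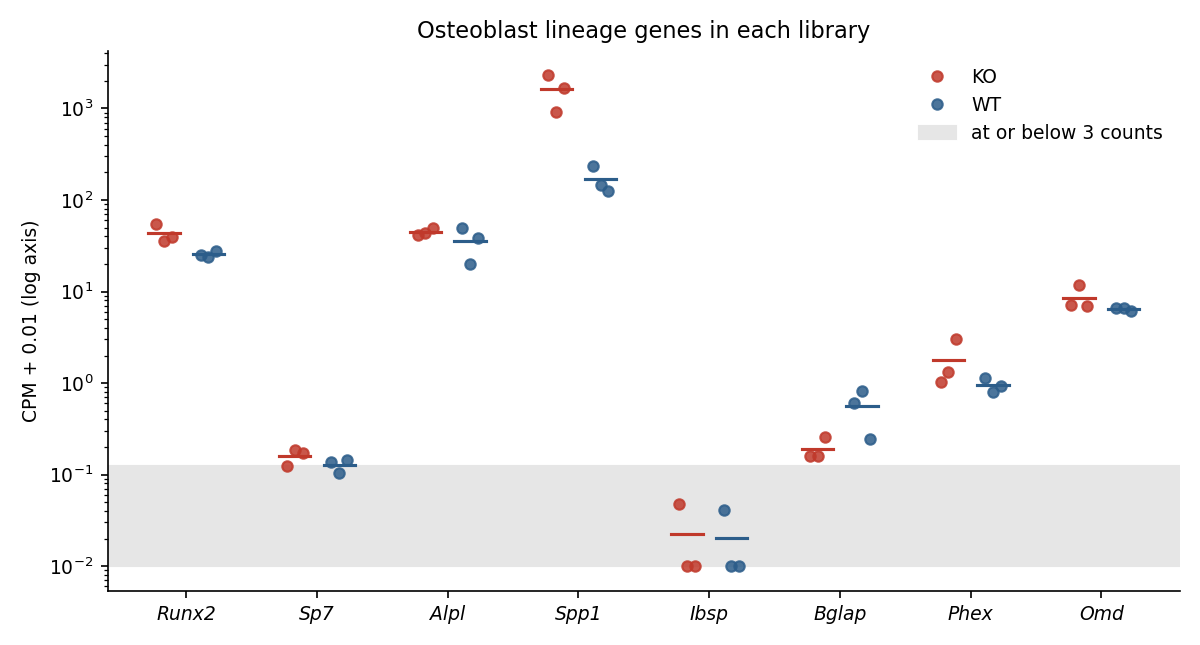
CPM in each of the 3 KO (left) and 3 WT (right) libraries for the 8 osteoblast lineage genes, with 0.01 added, on a log axis. Points are libraries, horizontal lines are means, and the grey band covers values up to 3 counts. Spp1 stands highest, with 926 to 2303 CPM in KO and 124 to 236 CPM in WT, while Ibsp lies in the band and Sp7 at its edge in both genotypes.

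Other transcription factors of the osteoblast path moved in both directions. Of 10, all tested, 1 rose, 3 fell and 6 did not pass, 40% called against 28.3% over all tested genes. Their median log2 fold change was -0.29. Msx2, a homeobox factor of skull and limb mesenchyme, had 782, 914 and 747 counts in KO and 74, 63 and 72 in WT, higher by 3.51 log2 (SE 0.18, edgeR adjusted p = 7.7e-05). Its paralog Msx1 went the other way, with 2, 7 and 4 counts in KO and 743, 621 and 639 in WT (log2 fold change -7.29, SE 0.30, adjusted p = 2.5e-05). The 2 related factors were thus called in opposite directions. In each case the 3 KO libraries lay apart from the 3 WT libraries, as in 49.6% of all tested genes.

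Runx1, a paralog of Runx2 best known from blood formation, fell by 0.87 log2 to 23.4, 13.4 and 19.7 CPM in KO cells, against 35.3, 36.2 and 31.6 CPM in WT cells (edgeR adjusted p = 0.0187). Dlx3, a homeobox factor of bone and skin, fell by 2.05 log2 but had only 2, 5 and 3 counts in KO and 19, 12 and 10 in WT. Dlx5 and Dlx6, linked homeobox genes upstream of Sp7, had log2 fold changes of 0.84 and 0.85 and did not pass (adjusted p = 0.116 and 0.0798), although Dlx6 passed with DESeq2 (0.0400) and without KO replicate 1 (0.00709). Runx1 missed the threshold without WT replicate 1 or 2 (adjusted p = 0.0662 and 0.0725), and Dlx3 without KO replicate 3, without WT replicate 1 or with the replicate number as a block (0.0654, 0.0614 and 0.0501). The number of lower factors was 5 without KO replicate 1, 1 without WT replicate 1 and 6 with library-total scaling.

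Among 6 genes whose products are known to hold back Runx2, 1 rose and 5 were not called. The share called was 16.7%, against 28.3% over all tested genes. The gene that rose was Zfp521, a zinc finger protein that binds Runx2, with 82, 109 and 58 counts in KO and 2, 0 and 1 in WT. The KO to WT ratio of these counts was 79.7 (exact Poisson 95% interval 26.96 to 389.1, counting error only), and the gene passed the edgeR test (adjusted p = 0.000658). Twist1, Twist2, Hdac4, Hey1 and Sox9 were expressed in all 6 libraries, and none was called. Twist2 and Hdac4 share 46.53% and 22.36% of their exon bases with genes on the opposite strand, where reads cannot be told apart. In this list 2 genes were called lower without KO replicate 1, and 2 with library-total scaling.

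Alpl (chromosome 4, 137741733 to 137796384, minus strand) had 1104, 1467 and 1827 counts in KO and 1559, 636 and 1148 in WT. That is 41.4, 43.5 and 49.7 CPM in KO cells and 49.0, 19.97 and 38.7 CPM in WT cells, so WT cells were the more variable and the genotypes overlapped. The log2 fold change was 0.32 (SE 0.39, edgeR adjusted p = 0.444), and it ran from 0.0275 without WT replicate 2 to 0.61 without WT replicate 1. The difference was within the spread between replicates.

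Phex (chromosome X, 157162075 to 157415312, minus strand) had 27, 44 and 110 counts in KO and 36, 25 and 27 in WT. These are 1.01, 1.30 and 2.99 CPM in KO cells and 1.13, 0.785 and 0.911 CPM in WT cells. KO replicate 3 stood high while KO replicate 1 lay within the WT range. The log2 fold change was 0.92 (SE 0.48, edgeR adjusted p = 0.167). Leaving out KO replicate 3 gave 0.30, and leaving out KO replicate 1 gave 1.19, which passed the test (edgeR adjusted p = 0.0393).

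Of 8 genes that set the supply of phosphate and of mineral inhibitors, all tested, 2 rose and 6 did not pass, 25% called against 28.3% over all tested genes, with a median of -0.24 log2. Mgp, the matrix Gla protein that inhibits calcification, had 191, 77.2 and 102 CPM in KO cells and 3.55, 1.19 and 1.96 CPM in WT cells, higher by 5.79 log2 (SE 0.59, edgeR adjusted p = 0.000328). Ank, which carries the mineral inhibitor pyrophosphate or its precursors out of the cell, was 0.80 log2 higher, at 93.9, 113 and 99.6 CPM in KO and 70.3, 59.1 and 46.4 CPM in WT. Both called genes are known as inhibitors of mineral deposition. Enpp1, which makes pyrophosphate, had a log2 fold change of -0.64 and was not called (adjusted p = 0.375), and Phospho1, a phosphatase of matrix vesicles, had 51 to 84 counts in KO and 60 to 84 in WT. Phospho1 shares 84.18% of its exon bases with Abi3 and 89.6% with Zfp652, so most of its reads are ambiguous and its count is uncertain. Ank missed the threshold once WT replicate 2 was left out (adjusted p = 0.0503). With library-total scaling 2 genes of this list were called lower, and 4 were when KO replicate 1 was left out, among them Enpp1 (-1.40 log2, adjusted p = 0.0105).

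Spp1 (chromosome 5, 104435118 to 104441050, plus strand) had 61370, 31254 and 61529 counts in KO and 7501, 4665 and 3671 in WT. These are 2303, 926 and 1672 CPM in KO cells and 236, 147 and 124 CPM in WT cells. The lowest KO library, replicate 2, stood well above the highest WT library, replicate 1. The log2 fold change was 3.28 (SE 0.47, edgeR adjusted p = 0.00109), between 2.95 and 3.59 with any 1 library left out. By mean CPM, Spp1 ranked 46 of the 15009 tested genes in KO cells and 1041 in WT cells. The predicted gene Gm42793 shares 18.75% of the exon bases of Spp1 on the same strand, and reads there are assigned with less certainty. It had 27, 30 and 67 counts in KO and 4, 1 and 8 in WT, few beside those of Spp1.

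Ibsp, for bone sialoprotein (chromosome 5, 104299171 to 104311469), had 1, 0 and 0 counts in KO and 1, 0 and 0 in WT. It was at or below the detection limit in all 6 libraries, and no fold change is given. Ibsp lies 123.6 kb from Spp1 in a row of related genes for acidic proteins of bone and tooth. In that row, Dmp1 had 1 count in KO and 0 in WT, Mepe had 1 and 2, and Dspp had none in any library.

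The flanking genes of this row, both outside the bone protein family, were called in opposite directions. Sparcl1, which encodes the matricellular protein hevin, had 292, 210 and 208 counts in KO and 15, 6 and 4 in WT (log2 fold change 4.81, SE 0.52, edgeR adjusted p = 0.000669). Pkd2, which encodes the cation channel polycystin 2, fell by 0.80 log2 to 132, 227 and 230 CPM in KO cells, against 344, 333 and 350 CPM in WT cells (adjusted p = 0.0267). Pkd2 lost its call without any 1 WT library (adjusted p = 0.0792 to 0.0835). Over the 426.7 kb from Sparcl1 to Pkd2, Spp1 was therefore the only bone matrix gene of the 5 (Dspp, Dmp1, Ibsp, Mepe and Spp1) with more than 2 counts in a genotype.

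**Figure D2:**
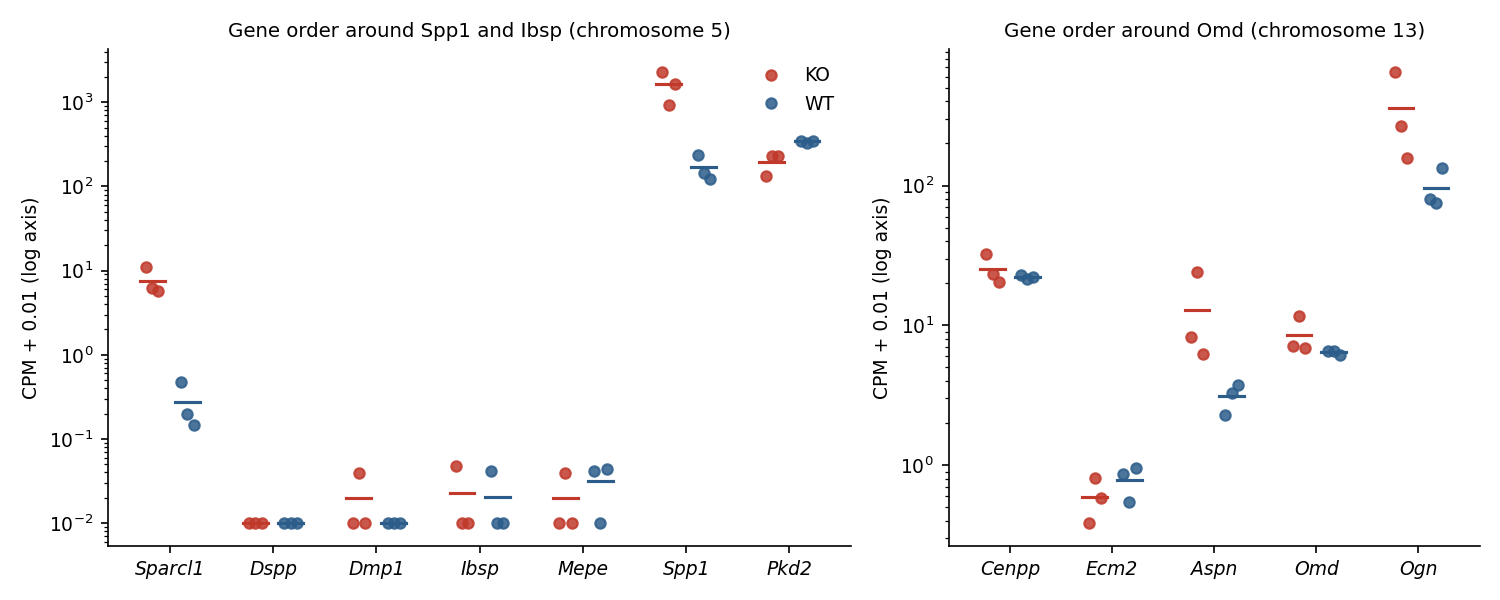
CPM with 0.01 added, on a log axis, in the 3 KO (left) and 3 WT (right) libraries for genes in their order along chromosome 5 around Spp1 and Ibsp, and along chromosome 13 around Omd. Points are libraries and lines are means. Dspp, Dmp1, Ibsp and Mepe sit at or near 0 beside Spp1, and Ogn and Aspn are higher in KO while Ecm2 and Cenpp overlap between genotypes.

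Osteopontin binds cells through integrins and CD44. Of 10 receptor genes 8 were tested: 4 rose, 1 fell and 3 were not called, with a median of 0.57 log2. The share called was 62.5%, against 28.3% over all tested genes. Itga5, the alpha-5 subunit, had 284, 251 and 308 CPM in KO cells and 99.0, 94.0 and 102 CPM in WT cells (log2 fold change 1.52, SE 0.09, edgeR adjusted p = 0.000209). Its partner Itgb1, the beta-1 subunit, averaged 1262 ± 279.7 CPM in KO cells and 625 ± 32.3 CPM in WT cells (SD, n = 3 each), 2.02-fold higher. Itgb3, the beta-3 subunit of the osteopontin receptor of osteoclasts, had 15.1, 20.6 and 16.8 CPM in KO and 8.73, 8.45 and 7.29 CPM in WT, 2.14-fold higher. Each of these 3 genes had every KO library above every WT library. Such a separation, in either direction, was found in 49.6% of all tested genes.

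Itga8, the alpha-8 subunit, had 572, 312 and 193 counts in KO and 4, 2 and 9 in WT (log2 fold change 6.17, SE 0.74, edgeR adjusted p = 0.0011). Itga9 was the gene that fell, with 0, 5 and 3 counts in KO and 22, 12 and 10 in WT (adjusted p = 0.0338). It is named because it is the only lower gene of this list, and it lost its call without KO replicate 3 or any 1 WT library (adjusted p = 0.0675 to 0.123), with the replicate number as a block (0.0906), and was not tested at a CPM of at least 1 in 3 libraries. Itgav, the alpha-v subunit, had 119 to 131 CPM in KO and 111 to 131 CPM in WT, and Cd44 had 112.8 to 143.6 CPM in KO and 110.5 to 122.2 CPM in WT. Both overlapped between genotypes and were not called.

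**Figure D3:**
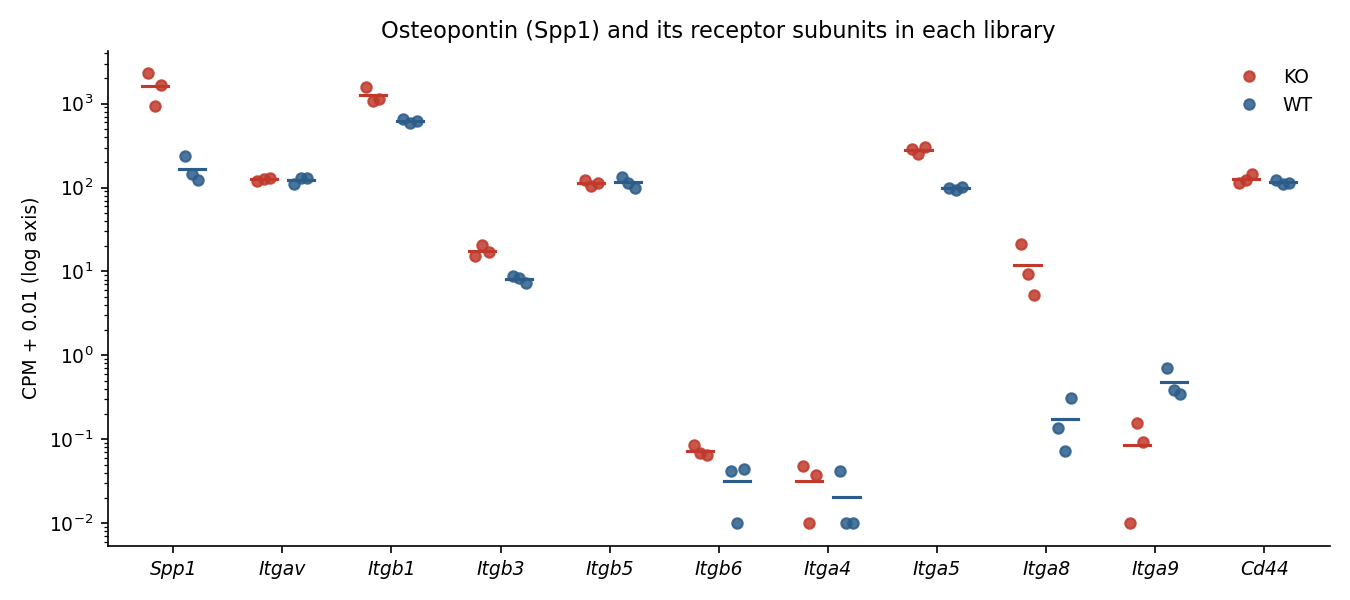
CPM with 0.01 added, on a log axis, of Spp1 and the genes of 10 osteopontin receptor subunits in the 3 KO (left) and 3 WT (right) libraries; points are libraries and lines are means. Itgb1, Itgb3, Itga5 and Itga8 are higher in every KO library than in any WT library, Itgav, Itgb5 and Cd44 overlap, and Itgb6 and Itga4 have at most 2 counts a library.

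Bglap, for osteocalcin (chromosome 3, 88383501 to 88384464, minus strand), had 4, 5 and 9 counts in KO and 19, 26 and 7 in WT. KO replicate 3 lay above WT replicate 3, so the genotypes overlapped, and the gene had too few counts for the test. The counts over each genotype, 18 against 52, give a KO to WT ratio of 0.332 (exact Poisson 95% interval 0.183 to 0.578), which covers counting error only. With no filter on low counts the log2 fold change was -1.58 and did not pass (edgeR adjusted p = 0.0709). The gene entered the test in 4 of the fits with 1 library left out. It passed without WT replicate 3 (-1.93 log2, adjusted p = 0.0308) and did not pass without KO replicate 1, 2 or 3 (-1.47, -1.43 and -1.86 log2, adjusted p = 0.0819, 0.146 and 0.0944).

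Mice carry 3 adjacent osteocalcin genes within 15.8 kb. Of the 75-base windows of the annotated Bglap transcripts, 44.5% also occur in Bglap2 and 7.54% in Bglap3, so reads of these genes may be exchanged between them or dropped. Bglap2 had 11, 5 and 3 counts in KO and 56, 84 and 13 in WT (log2 fold change -2.97, SE 0.89, edgeR adjusted p = 0.0268). Bglap3 had 1, 3 and 2 in KO and 2, 5 and 2 in WT. Bglap and Bglap2 both had their lowest WT count in replicate 3. Bglap2 lost its call without KO replicate 2 or 3 or WT replicate 1 or 2 (adjusted p = 0.0688 to 0.0984).

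Of 9 late osteoblast and osteocyte genes, Bglap2 and Bglap3 included, 4 were tested: 3 fell and 1 was not called. That is 75% of these 4 called, against 28.3% over all tested genes. Pdpn, the membrane glycoprotein podoplanin of early osteocytes and several other cell types, fell by 3.28 log2 to 9.12, 5.24 and 11.2 CPM in KO cells, against 90.7, 82.0 and 75.5 CPM in WT cells (SE 0.33, edgeR adjusted p = 0.000262). Fgf23, the hormone that Phex restrains, had 9, 2 and 7 counts in KO and 107, 45 and 80 in WT (log2 fold change -3.69, SE 0.62, adjusted p = 0.00345). Both had every KO library below every WT library, a separation that 49.6% of all tested genes share in either direction. Ifitm5, a membrane protein of mineralising osteoblasts, had 28, 28 and 50 counts in KO and 26, 17 and 27 in WT and was not called (0.52 log2, adjusted p = 0.292), and it shares 29.67% of its exon bases with Gm45717. The osteocyte gene Sost, which encodes the Wnt inhibitor sclerostin, had 0 counts in KO and 1 in WT.

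Omd, for osteomodulin (chromosome 13, 49582462 to 49592822, plus strand), a keratan sulfate proteoglycan of mineralised matrix, had 191, 396 and 253 counts in KO and 210, 209 and 181 in WT. These are 7.17, 11.7 and 6.88 CPM in KO cells and 6.60, 6.56 and 6.11 CPM in WT cells. In these TMM-scaled values the genotypes did not overlap, but KO replicates 1 and 3 were barely above WT. Relative to library totals alone, KO replicates 1 and 3 lay below every WT library, so the separation depends on the scaling. The log2 fold change was 0.42 (SE 0.25, edgeR adjusted p = 0.244), 0.23 with library totals (adjusted p = 0.539), and 0.13 without KO replicate 2.

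Omd lies in a row of related proteoglycan genes inside the body of Cenpp, a centromere protein gene on the opposite strand with which it shares no exon base. Ogn, for osteoglycin, had 651, 268 and 159 CPM in KO cells and 79.9, 74.6 and 133 CPM in WT cells (log2 fold change 1.90, SE 0.65, edgeR adjusted p = 0.0268). Aspn, for asporin, had 218, 811 and 228 counts in KO and 72, 105 and 110 in WT (2.05 log2, SE 0.63, adjusted p = 0.0239). Like Omd, Aspn was highest in KO replicate 2, whereas Ogn was highest in KO replicate 1. Ecm2 had a log2 fold change of -0.40 and was not called (adjusted p = 0.48). Ogn and Aspn each lost their call without any 1 WT library (adjusted p = 0.0546 to 0.106), Ogn also with the replicate block (0.0689) and Aspn with limma-voom (0.0501).

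Of 10 small leucine-rich proteoglycan genes 9 were tested: 5 rose and 4 were not called, with a median of 1.90 log2. The share called was 55.6%, against 28.3% over all tested genes. Fmod, for fibromodulin, a collagen-binding member, had 45.2, 136 and 47.3 CPM in KO and 2.67, 1.48 and 5.94 CPM in WT (log2 fold change 4.51, SE 0.77, edgeR adjusted p = 0.00239). Lum, for lumican, had 185, 150 and 103 counts in KO and 5, 2 and 20 in WT, and Prelp had 255, 404 and 170 in KO and 49, 60 and 89 in WT. In all 3 genes the genotypes did not overlap, as in 49.6% of all tested genes. Bgn, for biglycan, had 14.2, 13.4 and 15.7 CPM in KO and 119, 13.1 and 22.2 CPM in WT, so that WT replicate 1 alone stood high, and it was not called (-1.84 log2, adjusted p = 0.104). Bgn passed without WT replicate 2 (-2.30 log2, adjusted p = 0.0476) and with no filter on low counts (0.0288). Prelp missed the threshold without WT replicate 1 or 2 (0.0501 and 0.0511), and the list held 2, 2 and 3 higher genes when WT replicates 1, 2 and 3 were left out.

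The structural matrix that osteoblasts lay down is built mainly of type I collagen. Of 8 such genes, all tested, 6 rose and 2 (Bgn and Dcn) were not called, with a median of 1.33 log2. That is 75% called, against 28.3% over all tested genes. Col1a1, the main chain of type I collagen, averaged 1544 ± 59.7 CPM in KO cells and 559.6 ± 118 CPM in WT cells (log2 fold change 1.46, SE 0.18, edgeR adjusted p = 0.00113). Col1a2, its partner chain, had 125, 269 and 196 counts in KO and 13, 6 and 9 in WT. Per kilobase of exon, Col1a1 thus stood at 235 CPM in KO and 85.3 in WT, against 0.483 in KO and 0.0242 in WT for Col1a2, so the 2 chains of one collagen were far apart in both genotypes. Sparc, for osteonectin, averaged 1924 ± 133 CPM in KO cells and 709 ± 49.6 CPM in WT cells. Postn, for periostin, had 7990, 5869 and 3101 counts in KO and 172, 567 and 128 in WT. In these 4 genes every KO library lay above every WT library, a separation that 49.6% of all tested genes share in either direction. Col5a1, the weakest of the 6, missed the threshold with library-total scaling (edgeR adjusted p = 0.0610) and without WT replicate 1 or 2 (0.0619 and 0.0733).

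Of 12 genes for BMP ligands and for receptors of bone-forming signals 10 were tested: 1 rose, 3 fell and 6 did not pass. That is 40% called, against 28.3% over all tested genes, with a median of 0.16 log2. Bmp2, a ligand that induces bone, had 0, 0 and 2 counts in KO and 130, 78 and 178 in WT, a KO to WT ratio of 0.00498 (exact Poisson 95% interval 0.000600 to 0.0181, counting error only). Bmp6, another bone-inducing ligand, had 8, 4 and 4 in KO and 75, 112 and 65 in WT (log2 fold change -3.96, SE 0.40, edgeR adjusted p = 0.000964). Pth1r, the parathyroid hormone receptor of osteoblasts, had 21, 63 and 60 counts in KO and 267, 182 and 266 in WT (-2.41 log2, adjusted p = 0.00277). Fgfr2, a receptor whose activating mutations disturb skull bone growth in humans, had 82.2, 149 and 116 CPM in KO and 35.2, 21.8 and 42.2 CPM in WT (1.81 log2, adjusted p = 0.00386). The 3 lower genes and the 1 higher gene each had groups that did not overlap, as did 49.6% of all tested genes.

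Osteoblasts also steer osteoclasts, the cells that resorb bone. Tnfsf11, which encodes the osteoclast-inducing ligand RANKL, had 2, 1 and 12 counts in KO and 228, 110 and 263 in WT (log2 fold change -5.39, SE 0.74, edgeR adjusted p = 0.00155). Tnfrsf11b, for its decoy receptor osteoprotegerin, had 8, 20 and 35 in KO and 45, 144 and 229 in WT (-2.85 log2, SE 0.83, adjusted p = 0.0171). The ligand and its decoy were thus both lower in KO cells. Csf1, the third such signal, had 144, 398 and 324 CPM in KO and 291, 273 and 351 CPM in WT and was not called. The share called was 66.7% of these 3 genes, against 28.3% over all tested genes. Tnfrsf11b missed the threshold once WT replicate 2 or 3 was left out (adjusted p = 0.0524 and 0.0621).

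**Figure D4:**
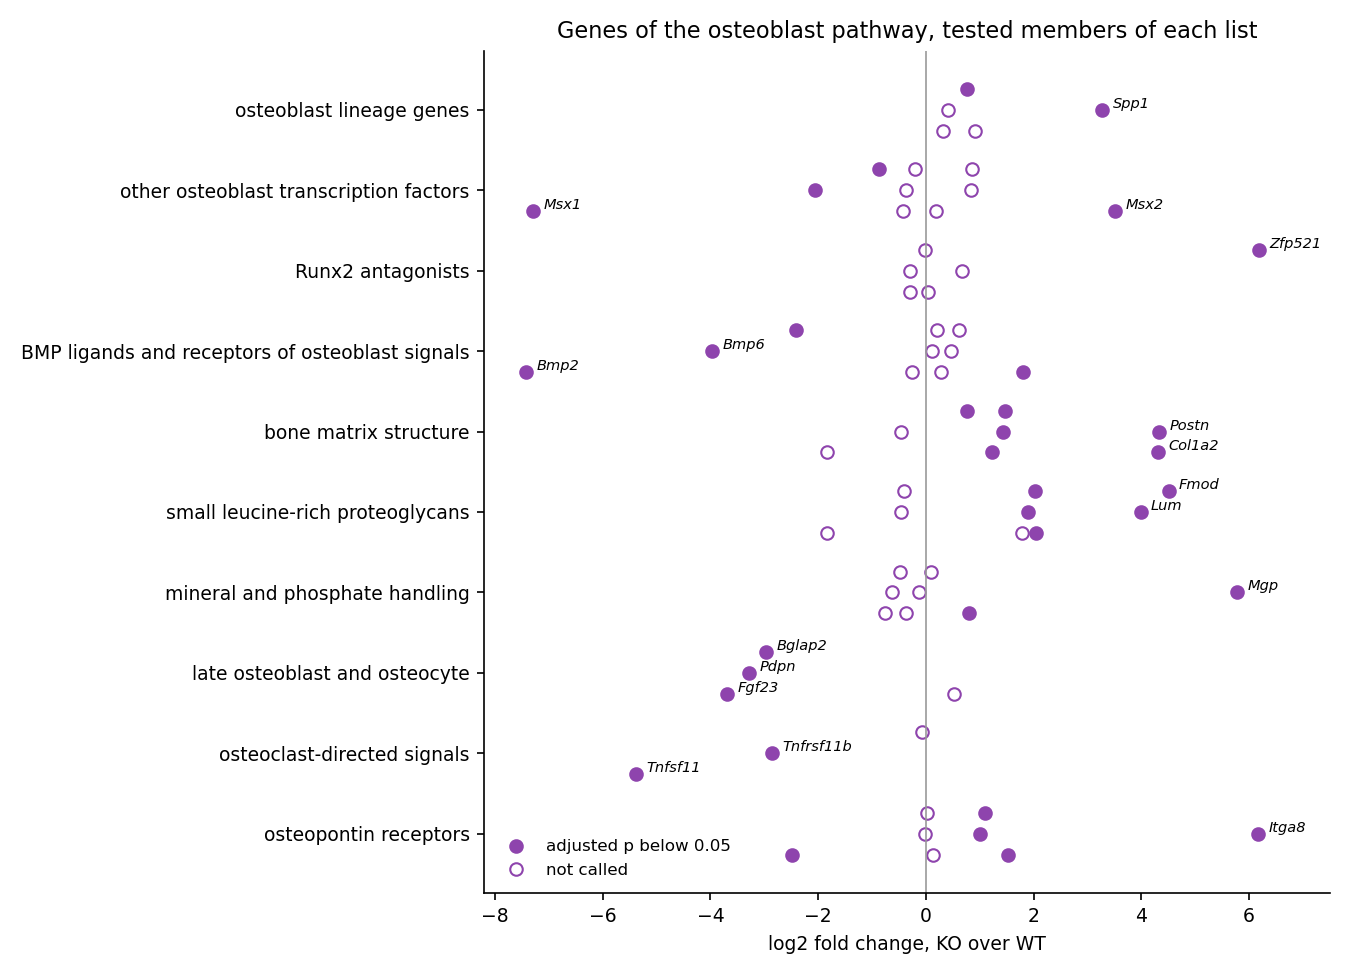
Log2 fold changes, KO over WT, of the tested genes of each list from the edgeR fit; filled points have an adjusted p below 0.05, open points do not, and genes beyond 2.5 in either direction are named. The fitted values of Bmp2 and Zfp521, with 2 counts in KO and 3 counts in WT over the genotype, depend on the prior count. Matrix and proteoglycan genes, 2 lists that share Bgn and Dcn, lie mostly to the right. Late osteoblast and osteoclast-directed genes, of which only 4 and 3 were tested, lie mostly to the left.

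Compared per kilobase of exon, as mean CPM, the 8 osteoblast lineage genes stood in the same order in both genotypes. Spp1 stood first with 991 in KO and 102 in WT, and Alpl second with 11.1 in KO and 8.90 in WT. Runx2 followed with 4.92 in KO and 2.90 in WT, before Omd with 3.82 in KO and 2.86 in WT, and the libraries of these neighbours overlapped in both genotypes. Bglap with 0.293 in KO and 0.890 in WT stood before Phex with 0.281 in KO and 0.150 in WT, and the libraries of this pair overlapped in KO but not in WT cells. Sp7 came next with 0.0445 in KO and 0.0348 in WT, and Ibsp last with 0.00605 in KO and 0.00506 in WT. Sp7 and Ibsp were both near or below the detection limit, so their order is not established. The libraries of Spp1 and Alpl, of Alpl and Runx2, of Omd and Bglap and of Phex and Sp7 did not overlap in either genotype.

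**Figure D5:**
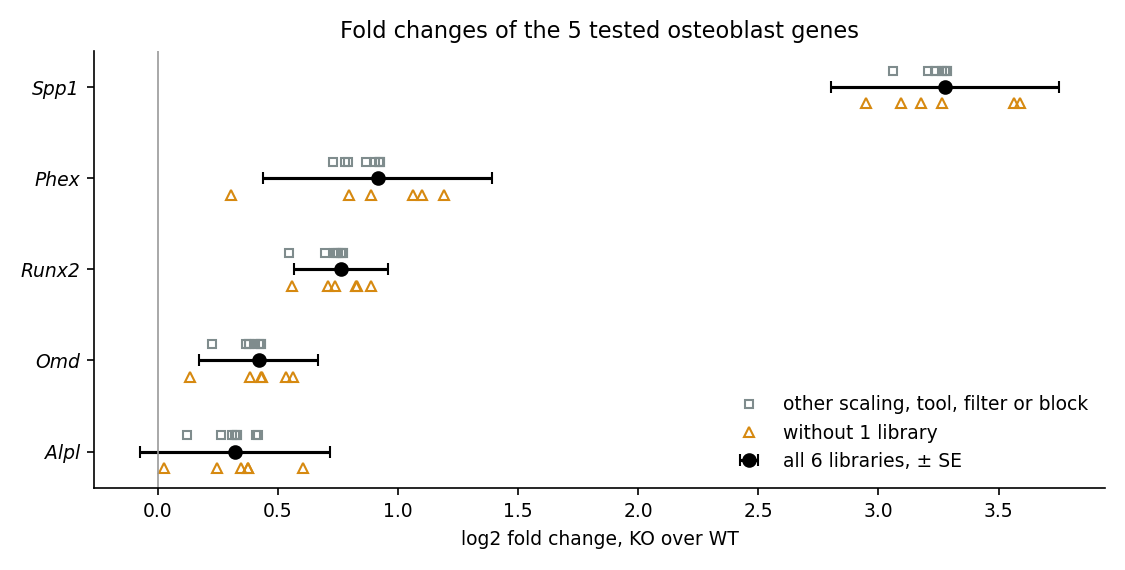
Log2 fold changes, KO over WT, of the 5 tested osteoblast lineage genes. Black points are the edgeR fit on all 6 libraries with the SE of the difference in mean log2 CPM, squares are fits with another scaling, tool, filter or the replicate block, and triangles are fits without 1 library. Spp1 stays between 2.95 and 3.59, and Alpl, Omd and Phex reach down to 0.0275, 0.13 and 0.30.

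Genes with profiles most like each member were sought by the root-mean-square distance between log2 CPM values centred over the 6 libraries, among tested genes with a mean of at least 200 counts. Spp1 lay nearest to Serpinb6b (distance 0.38), Slpi (0.39) and Bnip3 (0.40), all 3 called higher in KO. In KO, Slpi had 75.6, 19.0 and 50.2 CPM, the same order of libraries as Spp1, and so did Serpinb6b and Bnip3. The genes were chosen for likeness over these same 6 libraries. A shared order or direction, here and for the other members, therefore follows from the choice. Runx2 lay near Kdm4b (0.025) and Tcn2 (0.050), which were likewise highest in KO replicate 1. Phex lay nearest to Il13ra1 (0.19), Pde10a (0.21) and Timp1 (0.23), Omd to Gstm1 (0.11), Rmdn2 (0.13) and Sfxn4 (0.15), and Alpl to Tyw5, Ppp1r14c and Shox2 (0.27 each).

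Spp1 is also made by other cell types, whose markers were counted in the same libraries. Of 10 macrophage markers 4 were tested and 1 of them fell, 25% called against 28.3% over all tested genes. The lower gene was Fcer1g, with 1, 3 and 0 counts in KO and 15, 24 and 16 in WT. The summed level of the 10 markers was 21.5 to 31.0 CPM in KO and 19.5 to 37.7 CPM in WT, so the genotypes overlapped. Nearly all of it came from Cd68, with 388, 72 and 87 counts in KO and 279, 601 and 198 in WT, and from Cd14, with 203, 610 and 1022 counts in KO and 675, 524 and 321 in WT. Lyz2 had 25 to 34 counts in KO and 37 to 51 in WT, Csf1r had 2 to 6 in KO and 3 to 8 in WT. Cd68, Cd14 and Lyz2 were not called, and Csf1r had too few counts for the test. Tyrobp had 0 counts, and Adgre1, Ptprc, C1qa and Itgam at most 1, in each library, but Itgam shares 68.67% of its exon bases with Gm49368, where reads of either gene are ambiguous. Osteoclast markers summed to 5.16 to 7.24 CPM in KO and 4.52 to 11.5 CPM in WT, mostly from Mmp9. Dcstamp was at 0 in all libraries, and 2 of 5 were tested, neither called. Acp5 had 0, 3 and 3 counts in KO and 8, 12 and 35 in WT, lower in KO with too few counts for the test. Without KO replicate 1, 1 osteoclast marker was called higher and 1 lower. With no filter on low counts, and without WT replicate 1, 1 was called lower. Chondrocyte markers summed to 25.8 to 31.3 CPM in KO and 33.2 to 35.2 CPM in WT. Of these 8, 4 were tested and only Matn3 was called, as higher (25% called against 28.3% over all tested genes). That call was lost with library totals, with the replicate block, without KO replicate 1 or 3 and without WT replicate 1 or 2 (adjusted p = 0.0533 to 0.162). Sox9 had 649 to 725 counts in KO and 799 to 834 in WT, Col2a1 had 96 to 171 in KO and 167 to 195 in WT, and Comp had 13 to 36 in KO and 29 to 39 in WT, none of them called. In CPM, Sox9 and Col2a1 had every KO library below every WT library, a separation that 49.6% of all tested genes share in either direction. With library totals, and without KO replicate 1, 1 chondrocyte marker was called lower. Col10a1 had 1 to 2 counts in KO and 2 to 18 in WT, and Acan, Col9a1 and Matn1 had at most 3 a library. Adipocyte markers summed to 9.01 to 109.8 CPM in KO and 5.02 to 10.2 CPM in WT, with Lep at 0 in all libraries and most of the sum from Fabp4, the 1 tested gene of 7, which was not called but passed with DESeq2, with no filter on low counts and without KO replicate 2 or 3.

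Smooth muscle and epithelial markers differed between the genotypes, the epithelial markers in both directions. Of 6 smooth muscle markers, all tested, 5 rose, 83.3% called against 28.3% over all tested genes. The 4 with the smallest p were Cnn1, Lmod1, Myl9 and Acta2, higher by 7.86, 6.83, 4.68 and 6.88 log2. The 6 summed to 5229 to 13787 CPM in KO and 76.9 to 127 CPM in WT, although Myh11, a defining gene of mature smooth muscle, had 18 to 34 counts in KO and 21 to 28 in WT. Of 5 epithelial markers 3 were tested: Krt18 and Krt19 rose and Epcam, at 0 counts in every KO library, fell. That is 100% of these 3 called, against 28.3% over all tested genes. Cdh1 had 0, 4 and 2 counts in KO and 11, 7 and 11 in WT. Krt8 had 1, 4 and 3 in KO and 8, 6 and 5 in WT. Both were lower in KO with too few counts for the test. Without KO replicate 1 or 2, 2 epithelial markers were called lower. The 5 markers summed to 30.3 to 50.6 CPM in KO and 5.02 to 10.2 CPM in WT, mostly from Krt19. Fibroblast markers shared Col1a1, Col1a2, Fn1 and Dcn with the bone matrix list, and Dcn and Lum with the proteoglycan list. They summed to 7654 to 10571 CPM in KO and 2987 to 3772 CPM in WT. Of these 10, all tested, 8 were higher (80% called against 28.3% over all tested genes), first by p Col3a1 (5.04 log2). The part of these differences in the level of Spp1 or Runx2 was not tested. In bulk libraries, fewer cells of a type and less RNA per cell cannot be told apart.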

How the data were processed

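RNA of 3 KO and 3 WT samples was sequenced from TruSeq v2 libraries, a kit that does not record strand. The deposited files hold raw counts of reads for each Ensembl gene. TopHat2 2.1.0, HTSeq, DESeq2 and the build GRCm38.p4 appear in the submitters' processing notes. Annotation release, strand setting and read filters: not given in the sources used here. Of 46603 identifiers, 46091 matched GENCODE vM21 (GRCm38), which gave symbols, positions and exon lengths. Promoters came from RefSeq.

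Counts were analysed in R 4.3.3 with edgeR 4.0.16, using filterByExpr by group and TMM scaling. KO was set against WT by the two-sided quasi-likelihood test with no term but group. A gene was called where its p, adjusted by Benjamini and Hochberg over every tested gene, was below 0.05. Log2 fold changes are KO over WT. Their SE was taken from the mean log2 CPM of each genotype, with a prior count of 2 and n = 3 each. Ratios of summed counts have exact conditional Poisson intervals. Every adjusted p is edgeR's unless another tool is named. The code was tested on simulated counts with known changes.

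The members and lists were chosen with earlier results of these data known. The rule names all 8 members and, from each list, up to 4 called genes with the smallest p and those with no count. It also names the 3 nearest profiles of each tested member, of which 1 gene is not reported here. Genes named beside these were chosen after their values were seen. The alternatives changed the scaling (RLE, upper quartile, library totals), the tool (DESeq2 1.42.0, or limma-voom with limma 3.58.1) or the filter (none, or a minimum CPM of 1 in 3 libraries), added the replicate number as a block, or left out each library in turn.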

Additional observations from a re-analysis of the deposited data

How the results depend on the processing

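Spp1 was called in all alternatives, at 2.95 to 3.59 log2 with 1 library left out. Runx2 missed the threshold without WT replicate 1 (0.74 log2) or WT replicate 2 (0.71), and ran from 0.56 to 0.89 log2 with 1 library left out. Phex passed without KO replicate 1, and ran from 0.30 to 1.19. With 1 library left out, 1 to 3 members were higher and 0 to 1 lower, the 1 being Bglap without WT replicate 3. Over all genes, 1003 to 3075 were then higher and 1295 to 3462 lower, against 2074 and 2181 with all 6 libraries. The lowest counts came without WT replicate 2 and the highest without KO replicate 1. The cause of this range was not tested.

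With library totals in place of TMM, 1351 genes were higher and 3347 lower, so that 28.8% of calls were higher, against 48.7% with TMM. The median of all genes moved to -0.19 log2, and Runx2 and Spp1 were then 0.55 and 3.06 log2 higher, both still called. DESeq2 called 2648 genes higher and 2591 lower. With the replicate number as a block, 1446 genes were higher and 1599 lower, 3045 in all against 4255, of which 3015 were called in the same direction in both fits. Runx2 (0.74 log2, adjusted p = 0.0385) and Spp1 (3.24 log2, 0.00169) kept their calls under the block. The labels pair no cultures, and equally numbered KO and WT libraries deviated from their group means with correlations across genes of -0.101, 0.046 and -0.148, so the numbers were not taken as pairs. Of the related genes called or named with their fold change, 46 fits in all lost a call, 5 gained one and none changed direction, and 711 fits did neither. Sp7, Ibsp and Bglap had too few counts for the test at this depth.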
